A study of Mus musculus with 19 samples.

Results

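Transcripts of 9 skeletogenic transcription factors, Sox9, Sox5, Sox6, Runx1, Runx2, Sp7, Dlx5, Msx1 and Twist1, were followed in single cells of a mouse injury site where ectopic cartilage and bone form (heterotopic ossification, HO). They were taken by name from the 27998 genes of the count tables. The rule uses no measured value, although earlier results of these data were known when it was made. They were measured in the 2 cell classes of the site from which cartilage and bone are thought to arise. These were 11926 Pdgfra-positive cells, which are fibroblast-like mesenchymal cells that express the receptor for platelet-derived growth factor alpha, and 3152 tenocyte-like cells, out of 39541 cells in all.

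In the skeleton, mesenchymal cells that condense and become chondrocytes depend on SOX9, which works with SOX5 and SOX6 on the genes of cartilage matrix. Cells that become osteoblasts depend on RUNX2 and, downstream of it, on SP7 (osterix). DLX5 acts upstream of both in bone, while TWIST1 and MSX1 are factors of less differentiated mesenchyme, and TWIST1 is known to restrain RUNX2. RUNX1 is best known from blood formation, and is also present in early mesenchymal condensations. In HO after trauma, bone is laid down by way of a cartilage template, so that both programmes are of interest at the same site.

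The 19 libraries came from the tenotomy site of mice and formed 5 groups, with 4 libraries at day 0, 3 at day 3, 4 at day 7 and 4 at day 21, and 4 from mice given the CD47-activating peptide p7N3. The injury was a partial-thickness scald burn over 30% of the body surface of the back together with a cut through the Achilles tendon. According to the methods of the study, day 0 mice were not injured, although their labels carry the same injury text as the others. The peptide was injected intraperitoneally at 10 mg/kg every day from 3 days before to 3 days after injury, and these sites were harvested at day 7, a day that the labels do not give for replicate 4. C57 mice and LysmCre/Tgfb1fx/fx mice, in which Cre from the lysozyme M promoter deletes Tgfb1 in myeloid cells, are named for the series as a whole and not for any library. Genotype was therefore not compared, and the labels do not say how many mice each library came from. No vehicle is named in the labels of the other day 7 libraries.

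A cell was kept if 500 genes or more were detected in it and mitochondrial transcripts made up no more than 25%, which left 571 to 3668 cells in a library. Day 0 libraries were the shallowest. They held 3019467 to 5383855 unique transcript counts (UMIs) in cells, against 11064153 to 39870492 in the others, and a median of 3414 to 4693 UMIs per cell, against 6534 to 12406. At most 22 cell barcodes were shared by any of the 171 pairs of libraries. Of 33 clusters, 8 were called Pdgfra-positive because at least 50% of their cells had a Pdgfra UMI and at most 50% a UMI of Ptprc, the leukocyte antigen CD45. They held 1183 cells at day 0, 820 at day 3, 4476 at day 7, 1737 at day 21 and 3710 with the peptide. A further cluster, taken as a whole, expressed 9 of 9 tenocyte markers and was called tenocyte-like. It held 52 cells at day 0, 7 at day 3, 1371 at day 7, 1196 at day 21 and 526 with the peptide, so that no day 3 value is given for it, and 47.0% of its cells also had a Pdgfra UMI. The UMIs of each class were summed per library, and levels are given as UMIs of the gene per 1000000 UMIs of that class (CPM). As a 3′ count depends on how well each transcript is captured, levels were compared between samples and not between genes.

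The 9 genes lie apart on the mouse genome (GRCm38, GENCODE annotation), and each is protein coding. Sox9 (ENSMUSG00000000567) lies at chr11:112782224-112787760 and Twist1 (ENSMUSG00000035799) at chr12:33957671-33959829, both on the plus strand. The others are on the minus strand: Runx1 (ENSMUSG00000022952) at chr16:92601466-92826149, Runx2 (ENSMUSG00000039153) at chr17:44495987-44814797, Msx1 (ENSMUSG00000048450) at chr5:37820485-37824583, Sox5 (ENSMUSG00000041540) at chr6:143828425-144781977, Sox6 (ENSMUSG00000051910) at chr7:115470872-116038796, Sp7 (ENSMUSG00000060284) at chr15:102356606-102367182 and Dlx5 (ENSMUSG00000029755) at chr6:6877805-6882085. The loci of Sox5, Sox6, Runx1 and Runx2 overlap antisense genes that have rows of their own in the count tables, Sox5os1 to Sox5os5, Sox6os, Gm26626, and Runx2os1 to Runx2os3 with Supt3. Whether counting used strand is not given in the sources used here.

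The promoters of the 3 genes that moved most against day 0 in Pdgfra-positive cells are shown to place the letters read by the RUNX family beside the genes' behaviour, since Runx1 and Runx2 rose together while Msx1 fell. They are the 250 bases before the start site in RefSeq (GRCm38.p6, minus strand, 5′ to 3′), with Runx1 shown at its distal start (chr16:92826075-92826324) and its proximal start (chr16:92697330-92697579), Runx2 at its listed start (chr17:44814628-44814877) and Msx1 at chr5:37824586-37824835. Capitals mark the RUNX core TGTGGT or its reverse complement ACCACA.
Runx1 distal: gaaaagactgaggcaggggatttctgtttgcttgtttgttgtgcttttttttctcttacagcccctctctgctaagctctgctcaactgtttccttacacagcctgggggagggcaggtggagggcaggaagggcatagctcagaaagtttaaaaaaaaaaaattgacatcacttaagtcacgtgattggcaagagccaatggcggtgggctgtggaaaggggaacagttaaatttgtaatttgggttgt
Runx1 proximal: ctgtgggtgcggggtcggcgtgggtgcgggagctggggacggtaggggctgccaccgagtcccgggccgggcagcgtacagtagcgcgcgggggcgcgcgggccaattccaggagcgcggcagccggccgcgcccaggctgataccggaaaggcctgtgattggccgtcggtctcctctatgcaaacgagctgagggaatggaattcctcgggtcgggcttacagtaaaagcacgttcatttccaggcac
Runx2: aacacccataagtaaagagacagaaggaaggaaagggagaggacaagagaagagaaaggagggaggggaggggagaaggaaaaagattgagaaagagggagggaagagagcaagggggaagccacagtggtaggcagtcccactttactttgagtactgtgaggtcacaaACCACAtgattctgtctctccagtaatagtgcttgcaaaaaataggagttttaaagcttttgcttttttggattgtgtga
Msx1: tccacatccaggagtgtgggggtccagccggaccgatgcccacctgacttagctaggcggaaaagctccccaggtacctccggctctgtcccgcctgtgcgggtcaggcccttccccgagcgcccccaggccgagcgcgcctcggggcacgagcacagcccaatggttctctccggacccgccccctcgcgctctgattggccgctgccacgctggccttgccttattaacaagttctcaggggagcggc
The Runx2 promoter held 1 match, whose farthest base lies 80 bases before the start. The core occurs on either strand in 4614 of 32851 promoters of this length (14%), so a match is common and is only a description of the letters. The same windows differed in their CG dinucleotides, of which Runx2 held 0, the distal Runx1 promoter 2, Msx1 20 and the proximal Runx1 promoter 27, with a median of 6 over all promoters.

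In Pdgfra-positive cells, Runx1 had risen by day 3, and it rose furthest among the members with a measurable level at day 0. Its level was 21.4, 16, 17.7 and 14.2 CPM in the 4 day 0 libraries and 145, 174 and 131 CPM in the 3 day 3 libraries. It was 179, 159, 185 and 194 CPM at day 7 and 158, 119, 122 and 176 CPM at day 21. Every library after injury lay above every day 0 library, by 8.64-fold in the means at day 3, 10.3-fold at day 7 and 8.30-fold at day 21. The log2 fold changes from edgeR's quasi-likelihood test were 3.23 ± 0.18 (SE) at day 3 (adjusted p = 7.34e-10), 3.38 ± 0.17 at day 7 (adjusted p = 5.4e-10) and 3.07 ± 0.17 at day 21 (adjusted p = 3.39e-09). All adjusted p-values in the text are by the Benjamini-Hochberg method over every gene tested, here 13235, and the 3 comparisons share the day 0 libraries. Between days 3 and 7 Runx1 differed by 0.15 ± 0.14 (adjusted p = 0.423), and between days 7 and 21 by -0.30 ± 0.13 (adjusted p = 0.0747). A large part of all genes changed in these comparisons, namely 62.4% of those tested at day 3, 55.3% at day 7 and 31.3% at day 21, against 5, 6 and 6 of the 8 members tested.

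Runx2 went from almost none to a clear level in the same class, whose cells lay largely in different clusters on different days. It had 0.456, 0, 0.537 and 0 CPM at day 0, which is 2 UMIs in all. It had 20.6, 11.2 and 18.0 CPM at day 3, 33.3, 29.1, 35.6 and 35.9 CPM at day 7 and 20.6, 12.5, 17.3 and 22.2 CPM at day 21. The day 7 libraries were above all others without peptide, and the ranges of days 3 and 21 overlapped. Because day 0 rests on 2 UMIs, the rise is given as a ratio of pooled levels with its exact 95% counting interval, which was 50.5 (13.9 to 419) at day 3 and 107 (29.4 to 880.0) at day 7. At day 21 the ratio was 61.9 (17 to 513). These rises passed the test (adjusted p = 2.15e-07, 1.54e-08 and 1.25e-06 by edgeR). Unlike Runx1, Runx2 was also higher at day 7 than at day 3, by 2.01-fold in the means (log2 fold change 0.91 ± 0.19, adjusted p = 0.00112). In the class as a whole it was lower again at day 21 than at day 7 (-0.84 ± 0.18, adjusted p = 0.0016). The sign of the latter difference turned in cluster 2 alone (0.16) and cluster 15 alone (0.36), and in no other fit within a single cluster.

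Sox9, the factor of chondrocyte commitment, was already present before injury and rose later. Its level was 20.5, 40.1, 27.9 and 35.5 CPM at day 0, and 40.4, 39.3 and 28.0 CPM at day 3. It was 66.3, 55.4, 72.9 and 67.0 CPM at day 7, and 49.7, 50.6, 45.1 and 50.4 CPM at day 21. The day 0 and day 3 libraries overlapped, while all day 7 and day 21 libraries lay above both and the lowest day 7 library lay above the highest day 21 library. The means rose 2.11-fold by day 7 (log2 fold change 1.19 ± 0.16, adjusted p = 1.25e-05) and 1.58-fold by day 21 (0.78 ± 0.17, adjusted p = 0.00224). Sox9 was also higher at day 7 than at day 3 (0.75 ± 0.15, adjusted p = 0.000724) and lower at day 21 than at day 7 (-0.41 ± 0.14, adjusted p = 0.0244). The latter call was lost without any 1 of 5 of the 8 libraries (day 7 replicates 3 and 4 and day 21 replicates 1, 2 and 3), with values from -0.46 to -0.33, and the difference was 0.78 in cluster 12 alone and 0.45 in cluster 15 alone, where it did not pass. The day 3 difference was small (0.44 ± 0.18, adjusted p = 0.0389) and depended on the libraries. It missed the threshold without day 0 replicate 1 or 3 or without day 3 replicate 1 or 2, with values between 0.23 and 0.59, and among cells with no Ptprc UMI (0.27, adjusted p = 0.227). The fit scales by the bulk of genes, and the plain ratio of mean CPM at day 3 was 1.16.

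Msx1 moved the other way and as early as Runx1. It had 49.2, 90.5, 72.5 and 77.5 CPM at day 0 and 14.6, 11.7 and 9.86 CPM at day 3. It had 15.4, 9.65, 16.3 and 10.9 CPM at day 7 and 31.8, 40.9, 27.2 and 27.7 CPM at day 21. No library after injury reached the lowest day 0 library, and all day 21 libraries lay above those of days 3 and 7. The mean was 6.01 times as high at day 0 as at day 3 (log2 fold change -2.39 ± 0.23, adjusted p = 1.69e-07) and 5.54 times as high as at day 7 (-2.39 ± 0.20, adjusted p = 6.47e-08). From day 7 to day 21 it rose 2.44-fold (1.28 ± 0.19, adjusted p = 0.0001), and it was still below day 0 (-1.11 ± 0.20, adjusted p = 0.000565).

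Sox5 and Dlx5 were low and fell, Sox6 and Sp7 were close to the limit of counting, and Twist1 did not pass the test. Sox5 had 20.1, 12.6, 12.9 and 14.2 CPM at day 0 and 4.47, 9.33 and 3.81 CPM at day 3, with no overlap (log2 fold change -1.19 ± 0.31, adjusted p = 0.00327). It stayed between 6.02 and 10.5 CPM in the libraries of days 7 and 21, below every day 0 library (-0.87 ± 0.28, adjusted p = 0.015, and -0.87 ± 0.30, adjusted p = 0.0361). Without day 0 replicate 1 the day 7 difference of Sox5 missed the threshold, as the day 21 difference did without any of 5 of the 8 libraries. Dlx5 ranged widely at day 0, with 5.47, 1.15, 9.66 and 7.11 CPM, and lay between 1.60 and 3.85 CPM in all libraries of days 3, 7 and 21. Its falls at day 7 (-1.31 ± 0.38, adjusted p = 0.00711) and day 21 (-1.53 ± 0.42, adjusted p = 0.0101) rested on day 0 replicate 3, without which neither passed.

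Twist1 was the steadiest member, with means of 68.1 ± 9.69 CPM (SD, n = 4) at day 0, 65.4 at day 3, 64.5 at day 7 and 73.2 at day 21. Its ranges overlapped at all times, and the log2 fold changes against day 0 lay between -0.05 and 0.14, the day 7 value having an adjusted p of 0.771 and a standard error of 0.13. Sox6 did not exceed 2.09 CPM in any library. Sp7 had 0 UMIs at day 0, which allows up to 0.473 CPM over the group, then 7 UMIs at day 3, 9 at day 7 and 3 at day 21, so that no difference in Sp7 was detectable at this depth.

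**Figure D1:**
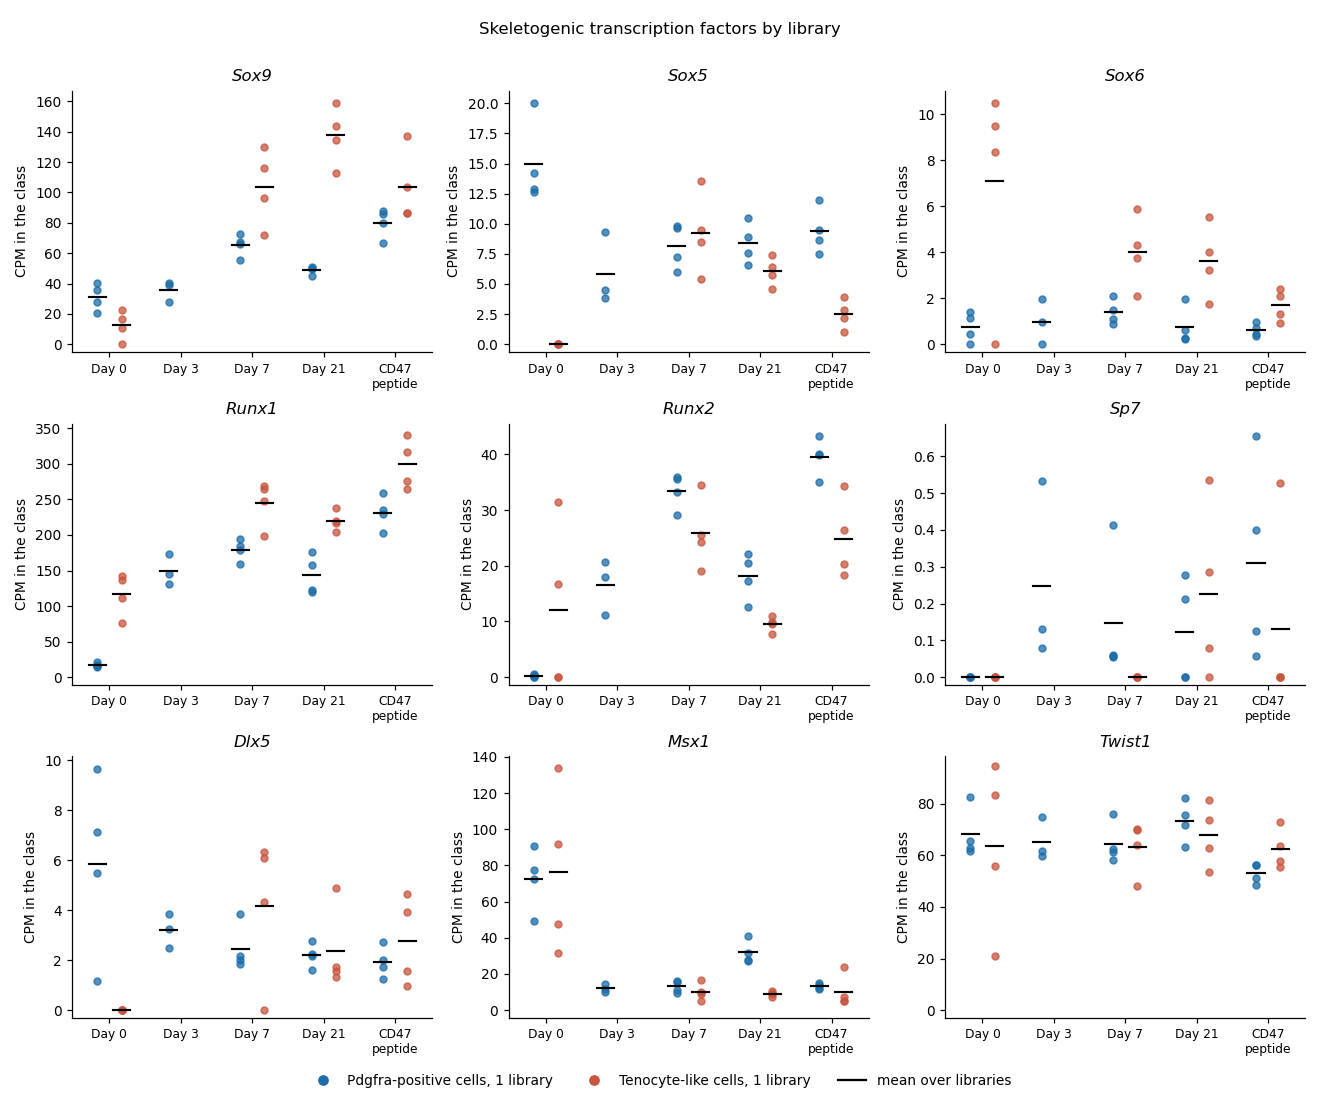
Level of each of the 9 genes in CPM (linear y axis, its own range for each gene) by group, for Pdgfra-positive and tenocyte-like cells. Points are libraries and short lines are group means. In Pdgfra-positive cells Runx1 was at 14.2 to 21.4 CPM in day 0 libraries and at 119 CPM or more after injury, while Msx1 fell from 49.2 CPM or more to 9.65 to 40.9 CPM.

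The order of the changes can be read as the part of the day 0 to day 7 difference of means that was present at day 3. Among the members called at day 7 it was 134% for Sox5, 102% for Msx1, 82.0% for Runx1, 78.5% for Dlx5, 49.3% for Runx2 and 14.2% for Sox9. At day 21, 108% of the day 7 difference was left for Dlx5, 96.6% for Sox5, 78.4% for Runx1, 68.2% for Msx1, 53.8% for Runx2 and 52.2% for Sox9. Neighbours in this order were not tested against each other. The cells of days 0, 3 and 7 lay largely in different clusters, as given below, so the order compares mixtures of cells. The step from day 3 to day 7 passed the test for Sox9 and Runx2, 2 of the 8 members against 41.4% of all genes, and not for Runx1 or Msx1 (0.00 ± 0.21, adjusted p = 0.999). From day 7 to day 21, 3 members passed, Msx1 upward and Runx2 and, with the dependence on libraries given above, Sox9 downward, against 37.8% of all genes.

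**Figure D2:**
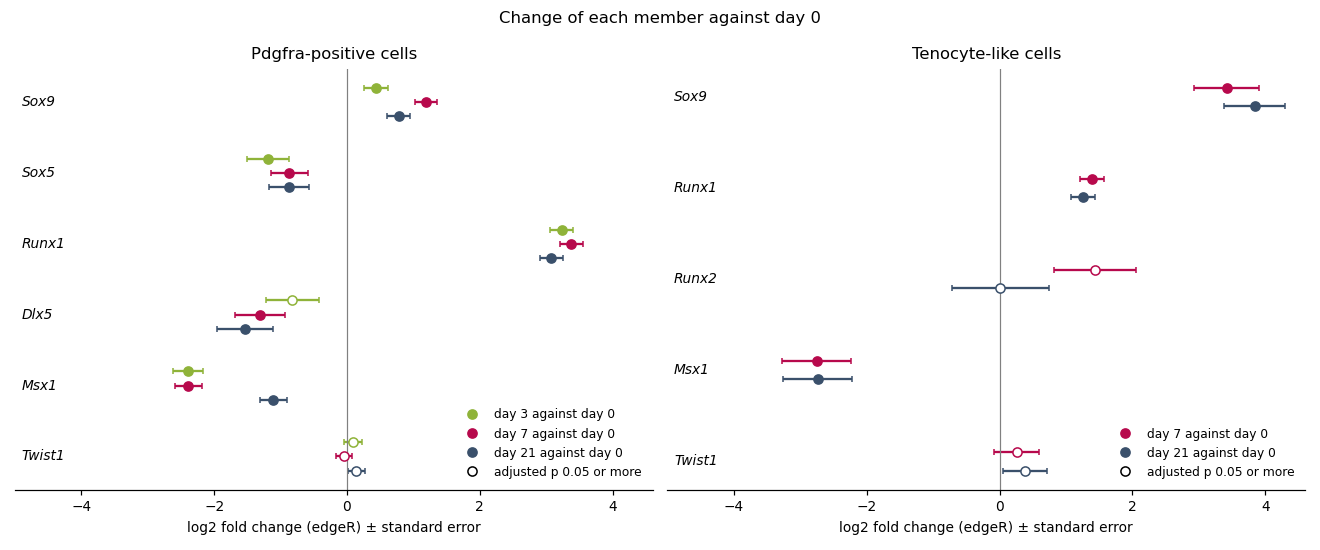
Fitted log2 fold change against day 0 (x axis, ± standard error) in Pdgfra-positive cells on the left and tenocyte-like cells on the right, with filled points for an adjusted p under 0.05 and open points otherwise. Genes with almost no UMIs at day 0 are left out (Runx2, Sox6 and Sp7 on the left, Sox5, Sox6, Dlx5 and Sp7 on the right). Runx1 stood at 3.23, 3.38 and 3.07 on the left, and Sox9 at 3.42 and 3.84 on the right.

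Once depth was made equal, the share of cells with a UMI kept the order of Runx1, Runx2 and Sox9. Sox5 and Dlx5 did not keep their places. Pdgfra-positive cells were deepest at day 3, with medians of 33228 to 41123 UMIs per cell in its libraries against 4311 to 6262 at day 0, and so each cell was thinned to 1500 UMIs. Cells with a Runx1 UMI then made up 2.55% at day 0, 20.5% at day 3, 22.0% at day 7 and 16.9% at day 21. For Runx2 the shares were 0%, 2.57%, 4.70% and 3.08%, and for Sox9 3.83%, 5.06%, 8.36% and 6.35%. Msx1 was found in 9.67%, 1.54%, 2.06% and 5.99% of cells, and Twist1 stayed between 8.40% and 9.25%. Sox5 was found in 2.42%, 1.32%, 1.32% and 1.11% of cells. The shares of Dlx5 were 0.726% (SD 0.793), 0.614%, 0.358% and 0.0442%. With 3000 UMIs per cell they were 1.41%, 0.572%, 0.655% and 0.274%. Whether its fall to day 7 came before or after day 3 thus depended on the depth chosen. Without thinning, 92.9% of day 3 cells had a Runx1 UMI and 7.54% of day 0 cells, and 51.2% against 11% had a Sox9 UMI, so the unthinned shares mix level and depth. Monocyte/macrophage-like cells, which are not mesenchymal, had a median depth of 6102 UMIs before thinning. When thinned likewise, 0.267% of the 8657 cells had a Sox9 UMI, 0.603% a Runx2 UMI, 0.232% a Twist1 UMI and 0.0927% an Msx1 UMI. In all Pdgfra-positive cells together, with a median of 13458 UMIs, the shares were 7.94%, 4.04%, 8.71% and 3.29%. Runx1 is expressed by leukocytes themselves, and 11.6% of the monocyte/macrophage-like cells had its UMI, against 21.5% of Pdgfra-positive cells. Runx2 also had group means of 4.13 to 13.8 CPM in leukocyte clusters, so its share in monocyte/macrophage-like cells is not a measure of background alone.

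Leukocyte transcripts moved with the injury within the Pdgfra-positive class. The summed level of 10 leukocyte markers was 64.0 to 196 CPM in day 0 libraries, 2327 to 2423 CPM at day 3 and 537 to 799 CPM at day 7, and in the day 21 libraries it was 152 to 257 CPM. In the leukocyte clusters themselves it was 19458 to 37450 CPM. All 10 markers rose at days 3 and 7 and 2 of 10 at day 21. The group means of Runx1 in leukocyte clusters were 68.4 to 97.6 CPM, with up to 131 CPM in a day 0 library and up to 107 CPM in a library of days 3, 7 or 21. Those of Runx2 were 4.13 to 13.8 CPM, and those of Sox9 at most 2.73 CPM, with 5.09 CPM in the highest library. Among Pdgfra-positive cells without a Ptprc UMI the changes of Runx1 (3.11 at day 3 and 3.35 at day 7), Runx2 (5.53 at day 3), Msx1 (-2.27 at day 3) and Sox9 (1.18 at day 7) still passed the test. Dissociation stress genes summed to 5735 to 7960 CPM at day 0 and 2843 to 5268 CPM at days 3, 7 and 21 without peptide, and their part in the results was not tested.

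The Pdgfra-positive class was made of different clusters at different times. Cluster 12, led by Myoc and Inmt, held 988 of the 1183 day 0 cells, and cluster 15, led by Has1, C3 and Tnxb, another 150. Cluster 17, led by Prg4, Lcn2 and Lif, held 738 of the 820 day 3 cells, and 44.4% of its cells had a Ptprc UMI. At day 7 cluster 2 (Sfrp4, Gdf10, Clec3b, Pi16) held 1114 cells, cluster 7 (Col7a1, Crabp1, Lrrc15) 1057 and cluster 6 (Gzme, Gzmc) 905, and at day 21 cluster 2 held 1029. Cluster 6 had no cell at day 0 and 1 at day 3. The values of the class therefore compare mixtures, and the members also differed between the clusters of one day.

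Cluster 6 had the most Sox9, Runx1 and Runx2 at day 7. Its mean Sox9 level was 129.5 ± 10.0 CPM (SD, n = 4), against 17 CPM in cluster 12 and 41 to 61.3 CPM in the others with at least 2 libraries of 10 cells. Its Runx1 level was 282 ± 5.41 CPM, against 58.2 CPM in cluster 12, 99.5 ± 18.4 CPM in cluster 2 and 174 CPM in cluster 7. Its Runx2 level was 50 ± 4.29 CPM, against 0.488 CPM in cluster 12, 16.8 CPM in cluster 2 and 38.8 CPM in cluster 7. Msx1 had its high values in the clusters of day 0, with 78.6 ± 18.9 CPM in cluster 12 and 70.8 CPM in cluster 15 at day 0, and 6.25 CPM in cluster 6 at day 7. As the clusters were found from these cells, although without the 9 genes among the variable genes used, these differences are given as a description.

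**Figure D3:**
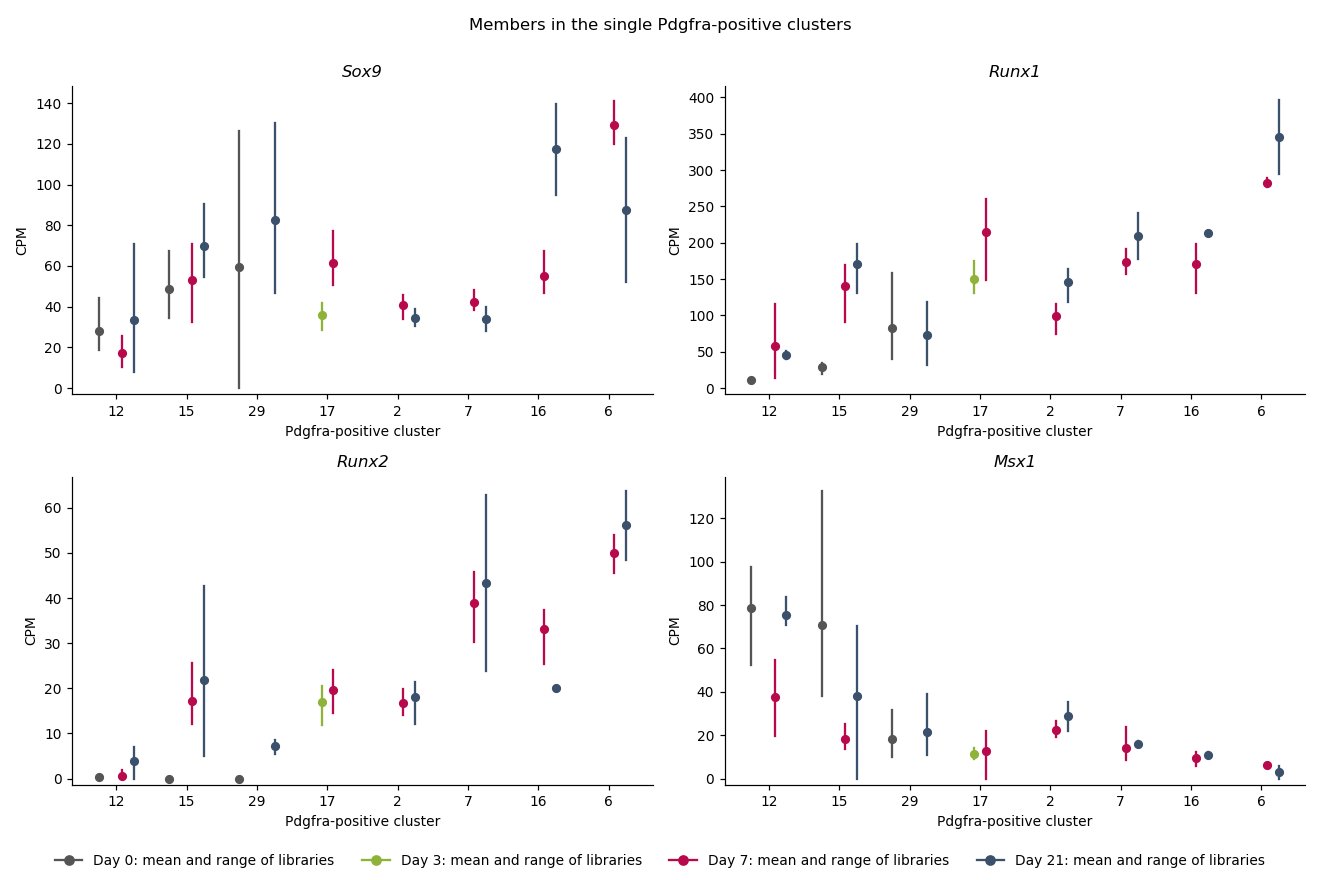
Level of Sox9, Runx1, Runx2 and Msx1 in CPM (y axis) in each Pdgfra-positive cluster (x axis, numbered), by day. Points are means over libraries and bars span the lowest to the highest library, shown where at least 2 libraries had at least 10 cells. At day 7 cluster 6 stands highest for Sox9 (129.5 CPM), Runx1 (282 CPM) and Runx2 (50 CPM).

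Where a cluster was present at both times, the change could be tested within it. At day 3 clusters 12 and 15 held 4 and 19 cells, and cluster 17 held 3 cells at day 0. No fit within a cluster was made for day 3, so the order of the changes was not checked in this way. Runx1 rose and Msx1 fell from day 0 to day 7 in cluster 12 alone, with log2 fold changes of 2.19 and -0.91. These were the 2 members called there, against 13.7% of the genes tested. In cluster 15 alone 5 members passed, against 27.3% of genes. Runx1 (2.19) and Runx2 (6.36) rose, and Msx1 (-1.75), Sox5 (-1.79) and Twist1 (-0.85, adjusted p = 0.0021) fell. Sox9 passed in neither, at -0.33 in cluster 12 and 0.23 in cluster 15. By day 21 Runx1 was also higher than at day 0 in cluster 12 (2.05, the 1 member called, against 4.25% of genes) and in cluster 15 (2.53, with Runx2, 2 members called against 6.48% of genes). Msx1 in cluster 12 stood at 75.6 ± 5.62 CPM at day 21, within its day 0 spread of 78.6 ± 18.9 (log2 fold change -0.002, adjusted p = 0.999 by edgeR), and its fall from day 0 to day 21 passed the test in neither cluster alone. In mean level, Runx1 in cluster 12 went from 10.5 ± 3.80 CPM at day 0 to 58.2 ± 44.0 at day 7 and 45.3 ± 4.91 at day 21. Within cluster 2, Runx1 rose between day 7 (99.5 ± 18.4 CPM) and day 21 (146 ± 21.8 CPM) with a log2 fold change of 0.57 (adjusted p = 0.020), whereas in the class as a whole its difference was -0.30. It was the 1 member called in cluster 2, against 11.8% of genes.

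Tenocyte-like cells, named after the fibroblasts of tendon, differed from day 0 in Sox9, Runx1 and Msx1. The day 0 cells, however, belonged to another part of the class. Of the 52 day 0 cells 50 were in sub-cluster 5. It held 6 of the 1371 day 7 cells and 66 of the 1196 day 21 cells. The comparisons with day 0 are therefore between different sub-clusters. Counted against all other cells of the series, sub-cluster 5 passed 9 of 9 tenocyte markers and sub-cluster 2, with 1010 day 21 cells, 8 of 9. Sub-cluster 1, with 840 of the day 7 cells, passed 1 of 9, and sub-cluster 3, with 363, passed 2 of 9. Most day 7 cells thus lay in sub-clusters that passed few of these markers. At a cluster resolution of 1.5 the tenocyte-like class held 1 day 0 cell and 130 day 21 cells, while an unnamed cluster led by Col2a1 and Cilp2 held 51 and 887. With the members allowed as variable genes the class also held 1 day 0 cell, so under neither setting could the comparison with day 0 be fitted. Sox9 had 10.5, 16.7, 0 and 22.3 CPM at day 0, where 10 to 20 cells per library gave 5 UMIs in all. It had 71.7, 116, 129.8 and 96.2 CPM at day 7 and 113, 134, 144 and 159 CPM at day 21. Every library of both later days lay above every day 0 library, and the ranges of days 7 and 21 overlapped. The means rose 8.36-fold by day 7 (log2 fold change 3.42 ± 0.48, adjusted p = 4.12e-05) and 11.1-fold by day 21 (3.84 ± 0.46, adjusted p = 1.05e-05). Between days 7 and 21 the difference of Sox9 was 0.42 ± 0.16 (adjusted p = 0.0502).

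Runx1, in contrast to the Pdgfra-positive class, was already abundant in tenocyte-like cells at day 0. It had 136, 142, 75.7 and 111 CPM at day 0, 247, 199, 269 and 265 CPM at day 7, and 238, 216, 219 and 204 CPM at day 21. The later libraries did not overlap with day 0, and the means rose 2.10-fold (log2 fold change 1.39 ± 0.18, adjusted p = 1.89e-05) and 1.88-fold (1.25 ± 0.18, adjusted p = 8.27e-05). Msx1 had 31.5, 91.9, 47.3 and 134 CPM at day 0 from 31 UMIs. It had 16.9, 4.78, 10.2 and 9.15 CPM at day 7 and 10.8, 9.45, 8.83 and 7.02 CPM at day 21. Its highest later library was below its lowest day 0 library (-2.75 ± 0.52, adjusted p = 0.000731 at day 7, and -2.74 ± 0.51, adjusted p = 0.000951 at day 21), although the call was lost when likely doublets were removed (adjusted p = 0.334 and 0.357), which left day 0 replicates 2 and 4 with 8 cells each and so out of the fit. These 3 of the 8 members tested passed at both days, against 19% of 10979 genes at day 7 and 14.7% at day 21, and the median of all genes was itself shifted by 0.257 and 0.219 on the log2 scale.

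Runx2 differed between day 7 and day 21 in tenocyte-like cells. It had 19, 24.3, 34.6 and 25.6 CPM at day 7 and 9.96, 7.74, 11 and 9.62 CPM at day 21, without overlap. The mean was 2.70 times as high at day 7 (log2 fold change of day 21 over day 7 -1.42 ± 0.19, adjusted p = 2.15e-05), the 1 member called against 29% of genes. At a cluster resolution of 1.5, with 130 day 21 cells in the class, this call was lost (-0.89, adjusted p = 0.0547 by edgeR). At day 0 Runx2 stood on 5 UMIs, with 31.5, 16.7, 0 and 0 CPM, and overlapped with both. Sox5 had 0 UMIs at day 0, which allows up to 7.31 CPM, and 9.49, 8.46, 13.6 and 5.40 CPM at day 7, at least 1.25-fold higher in the pooled levels (adjusted p = 0.0808). Sox6 had 3 UMIs at day 0 and 1.73 to 5.87 CPM in later libraries without peptide. Sp7 had 0 UMIs at days 0 and 7 and 4 at day 21. Twist1 overlapped between all days, with 21.0 to 94.7 CPM at day 0. Leukocyte markers summed to 94.7 to 792 CPM in the day 0 libraries, with up to 6 of the 10 at 0 in a library, 723 to 1023 CPM at day 7 and 94.6 to 288 CPM at day 21. Among cells without a Ptprc UMI Sox9 (3.65), Runx1 (1.51) and Msx1 (-2.66, adjusted p = 0.010) still passed at day 7.

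The 2 classes differed in how far the members changed. In a fit over both classes with each library as a block, the day 7 change of Sox9 was larger in tenocyte-like than in Pdgfra-positive cells by 2.33 ± 0.59 on the log2 scale (adjusted p = 0.0129), and the change of Runx1 was smaller by 1.97 ± 0.27 by edgeR (log2 difference -1.97, adjusted p = 4.64e-05). Runx2 also passed by edgeR, downward (adjusted p = 0.00644), and Sox5 upward (adjusted p = 0.0299). Runx2 rests on 2 day 0 UMIs in Pdgfra-positive and 5 in tenocyte-like cells. Sox5 rests on none in tenocyte-like cells, so the sizes of both are not measured ones. These 4 of 8 members compare with 10.3% of 11973 genes, whose median difference was 0.27. At day 21 the differences were 3.19 ± 0.54 for Sox9 (adjusted p = 0.000477), -1.75 ± 0.27 for Runx1 (adjusted p = 0.000158) and -1.50 ± 0.38 for Msx1 (adjusted p = 0.0153), and Runx2 passed again (adjusted p = 0.00363), against 9.42% of genes. Each rests on the 52 tenocyte-like cells of day 0, of which 50 were in sub-cluster 5, unlike most later cells. Sox9 had 5 UMIs in those day 0 cells, so its sizes are uncertain as well. The day 7 difference of Sox9 lost its call without day 0 replicate 2 or 3 and in cells without a Ptprc UMI (adjusted p = 0.053), that of Sox5 without any 1 of the 4 day 0 libraries, and that of Runx2 without day 0 replicate 1 at both days. The day 21 difference of Msx1 lost its call without day 0 replicate 2 or 4, and in cells without a Ptprc UMI (adjusted p = 0.061). With likely doublets removed, and so with 2 day 0 libraries, none of the 4 passed at day 7 by edgeR (575 genes called, adjusted p of Runx1 0.0561) and Sox9 alone passed at day 21 (adjusted p = 0.040).

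Within the tenocyte-like class each gene of the SOX trio had a higher level in a small group of day 21 cells than in sub-cluster 2. Of 7 sub-clusters, sub-cluster 7 (74 cells, 67 of them at day 21) expressed 10 of 11 chondrocyte markers, with 26853 CPM of Col2a1, the collagen of cartilage, and was called chondrocyte-like. It also expressed 4 of 9 tenocyte markers and, alone among the sub-clusters, 2 osteoblast markers, Ibsp and Alpl. Sub-cluster 2 in turn expressed 4 of 11 chondrocyte markers. Sub-cluster 2 held 1010 of the 1196 day 21 cells, and sub-cluster 5 held 50 of the 52 day 0 cells together with 66 of day 21. At day 21, Sox9 had 188, 359, 301 and 249.6 CPM in the 4 libraries of sub-cluster 7 and 115, 134, 139 and 158 CPM in those of sub-cluster 2. Sox5 had 41.3, 18.6, 38.5 and 37.1 CPM against 4.75, 3.89, 3.71 and 6.17 CPM, and Sox6 had 13.8, 18.6, 21.0 and 39.0 CPM against 0.982, 3.54, 1.85 and 4.2 CPM. For all 3 SOX genes, no library of sub-cluster 7 overlapped with sub-cluster 2. Runx1 was lower in sub-cluster 7, at 165, 191, 175 and 150 CPM against 240, 220, 227 and 206 CPM, and Runx2 had 9.32 to 35.0 CPM against 7.43 to 9.35 CPM, so that its ranges overlapped.

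In single cells, 13 of the 67 chondrocyte-like cells of day 21 held UMIs of Sox9, Sox5 and Sox6 at once (19.4%, exact 95% interval 10.8 to 30.9), against 8 of the 1010 cells of sub-cluster 2 (0.792%, 0.343 to 1.55), although the latter were deeper, with a median of 23014.5 against 16470 UMIs. Sox9, with or without Sox5 and Sox6, was found in 57 of 67 and 689 of 1010 cells. Sox5 was found in 29 and 98 of them, and Sox6 in 22 and 59. Each gene was thus found in a larger share of the sub-cluster 7 cells. No number of cells expected to hold all of them at once was computed. Sox9 together with Runx2 was found in 10 of 67 cells (14.9%) and 128 of 1010 (12.7%), and Sp7 in 1 and 3 cells. Sub-cluster 5, led by Chodl and Col22a1 with 9 of 9 tenocyte markers, kept little Sox9, with means of 11.6 ± 12.3 CPM at day 0 and 15.2 ± 13.6 CPM at day 21 (SD, n = 3 each). Within it alone Runx1 was the 1 member with enough counts to be tested between days 0 and 21, and it was not called by edgeR (0.38, adjusted p = 0.637), where 0.746% of genes were. As the sub-clusters were made from these cells, their differences are descriptions without a test.

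**Figure D4:**
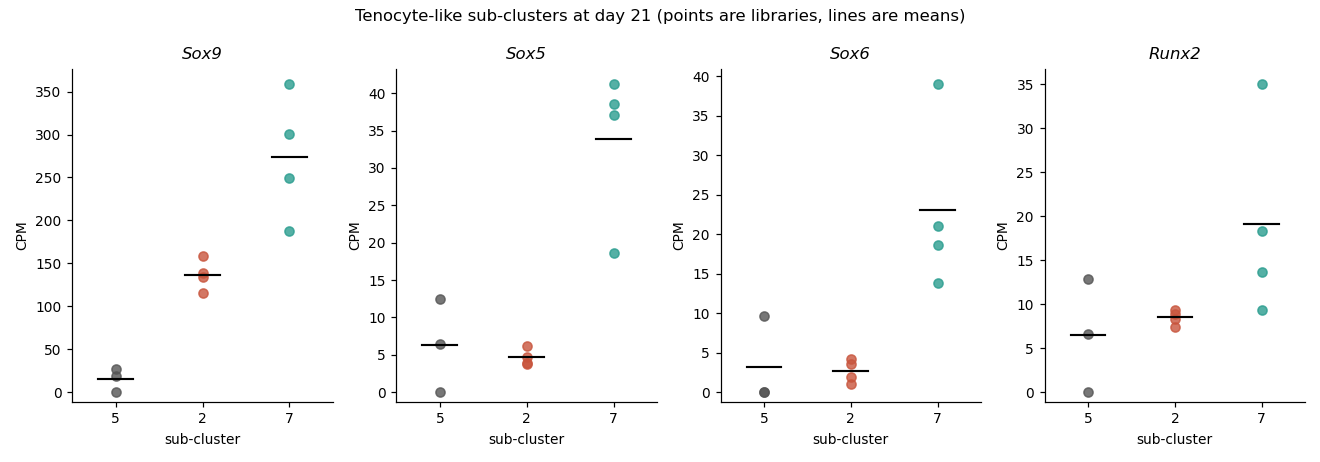
Level of Sox9, Sox5, Sox6 and Runx2 in CPM (y axis) in tenocyte-like sub-clusters 5, 2 and 7 at day 21 (x axis), with libraries as points and means as lines. In the chondrocyte-like sub-cluster 7 Sox9 stood at 188 to 359 CPM and Sox5 at 18.6 to 41.3 CPM, above every library of sub-cluster 2.

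Whether the members were in the same cells was asked by counting cells that held UMIs of both genes of a pair and dividing by the number expected if the genes were independent within each library. After thinning to 1500 UMIs per cell, 48 combinations of pair, class and group had at least 5 expected cells. The observed number was 1.05 times the expected in the median, from 0.501 to 1.83, and 46 of the 48 counting intervals included 1, with 2 above it. At 3000 UMIs 93 combinations could be read, of which 86 included 1, 6 were above and 1 below. When the expectation was made within each library and cluster, all 48 intervals included 1 at 1500 UMIs, and 92 of 93 at 3000 UMIs. Without thinning, where both genes of a pair also share the depth of the cell, 161 of 194 intervals included 1, 32 were above and 1 below, and within clusters 180 included 1 and 14 were above.

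Of the 2 intervals above 1 at 1500 UMIs, 1 was that of Runx1 and Runx2 in Pdgfra-positive cells at day 7. It was above 1 within libraries and not within clusters. The intervals pool the cells of the libraries and were not corrected for the number of pairs read. Of 4476 Pdgfra-positive cells thinned to 1500 UMIs, 988 held Runx1, 208 held Runx2 and 62 held both, against 46.3 expected (ratio 1.34, 1.03 to 1.72). The expectation within clusters lowered the ratio to 1.15 (0.884 to 1.48). At 3000 UMIs the figures were 184 cells against 146.9 (1.25, 1.08 to 1.45), and 1.11 within clusters (0.952 to 1.28). Without thinning, 88.9% of the cells with Runx2 also had Runx1, and 38.9% of those with Runx1 also had Runx2, where 73.2% and 32.3% of all cells (means of the 4 libraries) had Runx1 and Runx2.

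The counting intervals of Sox9 with the RUNX genes at day 7 included 1 at 1500 UMIs. Sox9 and Runx1 shared 94 day 7 cells against 83.0 expected at 1500 UMIs (1.13, 0.916 to 1.39), and 0.981 times the expected within clusters. Sox9 and Runx2 shared 20 cells against 17.6 (1.14, 0.695 to 1.76), and 0.95 times within clusters. At 3000 UMIs the ratio of Sox9 and Runx1 was 1.15 (1.02 to 1.3), and 1.03 within clusters. Runx1 and Msx1 were found together in 13 day 7 cells against 20.4 (0.636, 0.339 to 1.09), and at day 21, with 3000 UMIs, in 39 against 55.4 (0.704, 0.5 to 0.962). Within clusters the ratio at day 21 was 0.826. In tenocyte-like cells of day 7 the ratios were 1.05 for Sox9 and Runx1, 1.14 for Runx1 and Runx2 and 1.01 for Sox9 and Runx2. Pairs in the same cell share its depth and its cluster, so the ratios are given as a description.

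**Figure D5:**
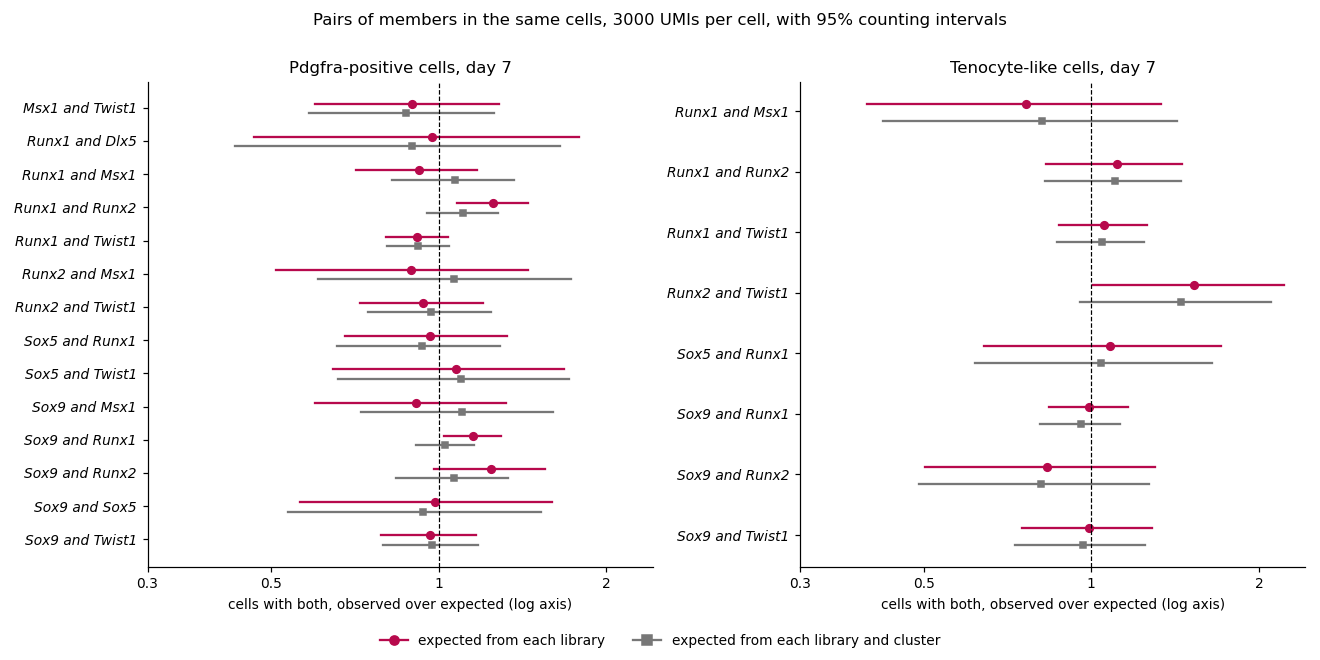
Observed over expected number of cells that hold UMIs of both members of a pair at day 7 (x axis, log scale), for cells thinned to 3000 UMIs, in Pdgfra-positive cells and tenocyte-like cells, for pairs with at least 10 expected cells. Points are ratios with 95% counting intervals, with the expectation made within libraries or within libraries and clusters. Runx1 with Runx2 in Pdgfra-positive cells stands at 1.25 within libraries and 1.11 within clusters.

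The CD47-activating peptide was compared with day 7, and no member passed the test in either class. In Pdgfra-positive cells Runx1 had 203, 235, 259 and 229 CPM with the peptide, each above the highest day 7 library (194 CPM), with a log2 fold change of 0.38 ± 0.10 and an adjusted p of 0.289 by edgeR. Sox9 had 79.6, 85.8, 66.9 and 87.6 CPM and overlapped with day 7 (0.30 ± 0.11, adjusted p = 0.369). Runx2 had 43.4, 40.0, 35.0 and 40.0 CPM and also overlapped (0.25 ± 0.09, adjusted p = 0.375). Twist1, with 56.3, 56.4, 48.7 and 51.1 CPM, lay below all day 7 libraries (-0.27 ± 0.09, adjusted p = 0.354). None of 13313 genes was called here (0%), while 1524 had an unadjusted p under 0.05 by edgeR and DESeq2 called 84 genes, none of them a member. In thinned cells the share with Runx1 was 28.6% with the peptide and 22.0% at day 7, and the share with Sox9 9.99% and 8.36%. Cluster 6 held 1066 of the 3710 peptide cells and 905 of the 4476 day 7 cells. Cluster 2 held 555 and 1114 of them, so these values also compare different mixtures.

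In tenocyte-like cells Sox5 was lower with the peptide, at 3.94, 2.17, 2.86 and 1.06 CPM against 9.49, 8.46, 13.6 and 5.40 CPM at day 7, without overlap. The log2 fold change was -1.92 ± 0.38 with an adjusted p of 0.111 by edgeR, where 0.13% of genes were called, and it depended on the test, with an adjusted p of 0.01 by DESeq2 and 0.002 by edgeR with no filter on low counts. Runx1 had 316, 265, 340.4 and 275 CPM (0.29 ± 0.11, adjusted p = 0.429), and Sox9 overlapped with day 7 (-0.02 ± 0.17). Here too the mixtures differed, as sub-cluster 1 held 202 of the 526 peptide cells and 840 of the 1371 day 7 cells.

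Genes known to depend on these factors, or to work with them, were read as lists. Of 18 cartilage genes of the SOX9 programme, 14 were tested in Pdgfra-positive cells. At day 3 against day 0, 4 rose and 2 fell, with a median log2 fold change of 1.54 against 0.02 over all genes. At day 7, 8 rose and 1 fell, with a median log2 fold change of 2.95 against 0.03 over all genes. At day 21, 10 rose and none fell (median 4.08, against 0.01). The shares of all genes called were 62.4%, 55.3% and 31.3% at these days, so that the list's 6, 9 and 10 called genes of 14 stood below, slightly above and above them. Col11a1, a fibrillar collagen of cartilage, had 24.0 ± 1.75 CPM at day 3 and 173 ± 24.4 CPM at day 7, against 7.67 ± 1.83 at day 0 (log2 fold changes 1.83 and 4.57). Acan, which encodes the proteoglycan aggrecan, had 14.9 CPM at day 3, 91.4 ± 26.9 at day 7 and 83.5 ± 29.1 at day 21, and 0 UMIs at day 0. Col2a1 had 31.9 ± 33.9 CPM at day 21 against 0.489, its spread being as large as its mean. The fall at day 7 was that of Chad, a cartilage matrix protein. Matn1 had no UMI at days 0 and 21.

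Of 16 genes of bone and hypertrophic cartilage that follow RUNX2 or SP7, 11 were tested in Pdgfra-positive cells. Against day 0, 3 rose and 2 fell at day 3 (median log2 fold change 0.14), 5 rose and 2 fell at day 7 (0.81) and 5 rose and 1 fell at day 21 (0.33), with the medians over all genes as for the cartilage list. Beside 62.4%, 55.3% and 31.3% of all genes, these were 5, 7 and 6 of 11. Spp1, which encodes osteopontin and is also made by macrophages, had 800 ± 159 CPM at day 7 against 38.8 ± 35.4 at day 0 (log2 fold change 4.61). Mmp13, a collagenase of hypertrophic cartilage and bone, had 65.0 ± 39.4 CPM and 0 UMIs at day 0, and Pth1r, the parathyroid hormone receptor, had 54.2 ± 6.06 against 17.8 ± 2.23 CPM (1.64). Smpd3, a sphingomyelinase needed for mineralisation, was by contrast a gene of the day 0 cells, at 124 ± 28.2 CPM against 1.49 ± 1.08 at day 7 (-6.37). Col10a1, the collagen of hypertrophic cartilage, Ihh and Spp2 had no UMI at days 0 and 3, nor had Col10a1 at day 21.

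Of 30 related transcription factors and partners, 23 were tested in Pdgfra-positive cells, and similar numbers rose and fell. Against day 0, 5 rose and 9 fell at day 3 (median log2 fold change -0.20), 7 rose and 9 fell at day 7 (-0.14) and 5 rose and 6 fell at day 21 (-0.01), and Nkx3-2 and Barx1 had no UMI at days 0 and 21. The 14, 16 and 11 of 23 called compare with 62.4%, 55.3% and 31.3% of all genes. Sox4, a relative of the SOX members, had 191 ± 13.1 CPM at day 7 against 44.3 ± 12.1 at day 0 (log2 fold change 2.19). Scx, the scleraxis gene of tendon, had 53.8 ± 26.1 against 2.17 ± 1.44 CPM (4.55). Tcf4 fell early, from 257 ± 9.80 CPM at day 0 to 55.1 ± 9.23 at day 3 (-2.06), as did Gli2, a mediator of hedgehog signals, from 12.1 ± 1.98 to 2.45 ± 0.29 CPM (-2.18).

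In tenocyte-like cells the cartilage list held genes that rose and genes that fell against day 0. Of 15 genes tested, 1 rose and 3 fell at day 7 against day 0 (median log2 fold change -0.35, against 0.26 over all genes), and 4 rose and 1 fell at day 21 (3.62, against 0.22). The 4 and 5 called compare with 19% and 14.7% of all genes. From day 7 to day 21, between which the class was made of different sub-clusters, 15 of 15 rose, where 29% of all genes were called. Their median was 2.49 against -0.04 over all genes. Acan rose from 4.18 CPM at day 0 to 347 ± 68.1 at day 7 (log2 fold change 6.47). Its day 0 level lies under the limit of 7.31 CPM over that group, so the size is not a measured one. Chad fell from 1264 to 4.24 CPM (-8.61) and stood at 113 CPM at day 21. Col2a1 had 1734 ± 1293 CPM at day 21 against 84.2 at day 0. Pooled over all groups, it had 26853 CPM in the chondrocyte-like sub-cluster 7, with 67 of the 1196 day 21 cells. In sub-cluster 2, with 1010 of them, it had 68.5 CPM. Col9a2 rose from 15.8 to 134 CPM between days 7 and 21 (2.86), and without sub-clusters 6 and 7 its difference turned to -0.90. Of the 18 related factors tested, 4 rose and 6 fell at day 7 (median 0.14), among them Mkx, a tendon factor, from 113 ± 14.3 to 12.4 ± 2.23 CPM (-2.88). Of the 7 bone genes tested, 2 rose at each day against day 0 and none fell (medians 1.19 and 0.74). Dlx3, Lef1, Barx1, Matn1, Ihh and Phex had no UMI in tenocyte-like cells at days 0 and 7. With the peptide none of the genes in the 3 lists was called by edgeR in either class, where 1524 and 986 of all genes had an unadjusted p under 0.05.

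The genes whose level followed each member most closely over the 19 Pdgfra-positive library sums were named as a description, from Pearson's r on log2(CPM + 1) among genes with a mean of at least 10 CPM. Sox4 was nearest to Sox9 (0.95), ahead of Poglut1 (0.93) and Cnn3 (0.92). Hif1a, the hypoxia-inducible factor, was nearest to both Runx1 (0.99) and Runx2 (0.98), which followed each other at 0.98. Serpina3c, Ppp1r12b and Lamb2 were nearest to Msx1 (0.98, 0.97 and 0.97), Lifr and Abca5 to Sox5 (0.93 and 0.92), Myc to Dlx5 (0.89) and Aes to Twist1 (0.79). For Sox6, a gene at the limit of counting, the nearest was Gpsm2 (0.66). The libraries share their day and their depth, so that many genes reach such values.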

How the data were processed

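Per the labels and the study's methods, the authors made droplet 3′ libraries and deposited unnormalized UMI counts per gene and barcode (Cell Ranger, mm10). The 19 matrices were clustered with scanpy 1.11.5 (2000 variable genes, 30 components, resolution 0.8), and clusters were named from marker lists. Likely doublets were not removed in the main values. Counts were summed per library and class with at least 10 cells and tested with edgeR 4.0.16 (quasi-likelihood, TMM, low-count filter, R 4.3.3) at an adjusted p under 0.05. DESeq2 1.42.0 and the other alternatives are given in the closing section. Pairing by replicate number was not used. The labels do not say that replicates are separate animals, so p-values measure the spread between libraries. Intervals (95%) and limits for 0 UMIs (3 counts) cover counting error only. Members and lists were chosen with earlier results of these data known. The text names all members and, per list and comparison, up to 4 genes of at least 10 CPM with the largest called change, and genes at 0. In simulated data, the fit found 66% of genes changed 2-fold at day 7 against day 0 in Pdgfra-positive and 18% in tenocyte-like cells.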

Additional observations from a re-analysis of the deposited data

Results flagged for a closer look

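Among the 72 groups of 4 libraries, 7 had a library far from the other 3 by Dixon's criterion, which chance gives in about 1 of 20 groups. In Pdgfra-positive cells these were Twist1 in day 0 replicate 1 (82.5 CPM, the others 61.8 to 65.4), Sp7 in day 7 replicate 1 (0.413 CPM, the others 0.0543 to 0.0614), Dlx5 in day 7 replicate 3 (3.85 CPM, the others 1.85 to 2.15) and Sox9 in day 21 replicate 3 (45.1 CPM, the others 49.7 to 50.6). In tenocyte-like cells they were Dlx5 in day 21 replicate 2 (4.87 CPM, the others 1.34 to 1.73), Sp7 in peptide replicate 4 (0.528 CPM, the others at 0) and Msx1 in peptide replicate 4 (23.7 CPM, the others 4.77 to 7.23). The Sp7 values rest on a few UMIs.

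The change from day 0 differed between tenocyte-like and Pdgfra-positive cells for 4 members at each day by the edgeR interaction test. At day 7 the difference was 2.33 on the log2 scale for Sox9 (adjusted p = 0.0129), 9.69 for Sox5 (adjusted p = 0.0299, with no tenocyte-like UMI at day 0), -1.97 for Runx1 (adjusted p = 4.64e-05) and -5.34 for Runx2 (adjusted p = 0.00644). At day 21 it was 3.19 for Sox9 (adjusted p = 0.000477), -1.75 for Runx1 (adjusted p = 0.000158), -5.92 for Runx2 (adjusted p = 0.00363) and -1.50 for Msx1 (adjusted p = 0.0153). The sizes of Sox5 and Runx2 are not measured ones, as Runx2 had 2 UMIs at day 0 in Pdgfra-positive and 5 in tenocyte-like cells. Those of Sox9 also rest on 5 tenocyte-like UMIs at day 0.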

How the results depend on the processing

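Of 2016 recomputed log2 fold changes of members, 1915 kept their call or their lack of one, 72 lost their call, 21 gained one and 8 called values changed sign. Among the 1915 are 116 values past the threshold in neither setting that changed sign. The calls of Runx1, Runx2, Msx1 and Sox5 at day 3 in Pdgfra-positive cells held under all 21 alternatives. The alternatives without Ptprc UMIs, without sub-clusters 6 and 7 and within single clusters were chosen after seeing the data. The day 0 tenocyte-like sums, from 52 cells, and the low counts of Sp7, Sox6 and Dlx5 set the limits of depth. Where a setting changed a call the cause was not tested, apart from the fits with fewer libraries, cells or genes.

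In Pdgfra-positive cells, cluster 12 alone called 2 members at day 7 against day 0 (6 in the whole class), 1 at day 21 against day 0 (6) and 0 at day 21 against day 7 (3, with 378 genes called and edgeR as the test). Cluster 15 alone called 2 members at day 21 against day 0 and 1 at day 21 against day 7, and cluster 2 alone 1 at day 21 against day 7. At day 7 against day 0, cluster 12 turned Sox9 to -0.33, Sox5 to 0.29 and Atf3 to 0.18. At day 21 against day 0 it turned Sox5 to 0.34, Col1a1 to -0.0034 and Tyrobp to -0.085. At day 21 against day 7 it turned Sox9 to 0.78 and Col1a2 to -0.75, cluster 15 turned Sox9 to 0.45, Runx2 to 0.36 and Col1a2 to -0.13, and cluster 2 turned Runx1 to 0.57 and Runx2 to 0.16.

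In tenocyte-like cells, sub-cluster 5 alone called 0 members at day 21 against day 0 by edgeR (11 genes called) and turned Chad to 0.063. At day 21 against day 7, where 1 member was called, RLE factors, replicates 1 to 3 only, the 2 groups alone and the class without sub-clusters 6 and 7 each called 2, no low-count filter 3 and cluster resolution 1.5 called 0 (886 genes called, Runx2 at -0.89 with an adjusted p of 0.0547 by edgeR). With 1 day 0 cell left in the class, the comparisons with day 0 could not be fitted at resolution 1.5 or with the members allowed as variable genes. Resolution 1.5 turned Mkx to -0.25 and Col9a2 to -0.26, allowing the members as variable genes turned Col9a2 to -1.09, and leaving out sub-clusters 6 and 7 turned it to -0.90. With the peptide, DESeq2 and no low-count filter each called 1 member, and 33 and 92 genes, against 13. The difference between classes at day 7 called 4 members, and 2 at no more than 10% mitochondrial UMIs, 2 with 1000 genes or more per cell, 2 without Ptprc UMIs and 0 with doublets removed. At day 21 it called 1 with doublets removed.

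Leaving out 1 library at a time gave, for Pdgfra-positive cells, 4 to 6 members called at days 3 and 21 against day 0 and 5 to 6 at day 7, with 2 to 3 between days 3 and 7 and 2 to 4 between days 7 and 21. In tenocyte-like cells it gave 3 to 4 at day 7 against day 0, 3 at day 21 and 1 to 2 between days 7 and 21, and for the difference between classes 2 to 4 at day 7 and 3 to 4 at day 21. Same-numbered deviations correlated from -0.414 to 0.413, without a steady pairing by replicate number. In Pdgfra-positive cells, replicate 4 libraries matched each other best for day 7 with day 21 (0.413), day 7 with peptide (0.224) and day 0 with day 21 (0.062). They did not for day 0 with day 7 (-0.006), nor in tenocyte-like cells. Whether same-numbered libraries share a batch is not known from the labels. With the replicate block, 4 members were called at day 3 against day 0 in Pdgfra-positive cells (Sox9 adjusted p = 0.234), 5 at day 7, 4 at day 21 and 2 between days 7 and 21. The genes called fell with it from 4147 to 2219 at day 21 against day 0, from 5485 to 2476 between days 3 and 7 and from 5005 to 3280 between days 7 and 21, and in tenocyte-like cells from 3182 to 898 between days 7 and 21.

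With doublets removed, the genes called in tenocyte-like cells went from 2091 to 1168 at day 7 and from 1619 to 895 at day 21 against day 0, and those of the difference between classes from 1239 to 575 and from 1128 to 515. With replicates 1 to 3 only, 2079 genes were called in tenocyte-like cells between days 7 and 21, and 709 for the difference at day 21.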

Other observations

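Outside the mesenchymal classes some members had their highest levels in other cells. Runx2 stood at 305 CPM in a dendritic-like cluster with Siglech (217 cells), with a median of 319 CPM over 8 libraries (150 to 456), against at most 43.4 CPM in any Pdgfra-positive library. Sox6 had 40.2 CPM in a Schwann-like cluster, with a median of 37.8 over 12 libraries (0 to 75.6), and 38.3 CPM in a pericyte/smooth muscle-like cluster, with a median of 32.3 over 16 libraries (14.7 to 94.0). In the latter cluster Msx1 had 104 CPM (57.1 to 156 over libraries) and Sox5 37.1 CPM, and in an endothelial-like cluster Msx1 had 61.5 CPM (17.4 to 79.8 over 15 libraries).

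Of all UMIs in the kept cells, Pdgfra-positive cells held 71.5% of the 16519 of Twist1, 68.0% of the 8362 of Runx2, 63.2% of the 744 of Dlx5, 61.6% of the 2606 of Sox5, 61.0% of the 19523 of Sox9, 57.6% of the 60470 of Runx1, 56.7% of the 5699 of Msx1 and 22.9% of the 794 of Sox6. Sp7 had 76 UMIs in all 39541 cells. Pdgfra-positive cells were 11926 of these cells, and the shares above were not set against their share of the UMIs of all genes.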
